A study of Mus musculus with 45 samples.

Results

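The antiviral genes classically induced by type I interferon were followed in mouse bone marrow-derived macrophages exposed to IFN-γ, to IL-4 or to both. The set holds 37 genes given by name as a functional group; no measured value enters the rule, though the list was drawn up with earlier results of these data known. All 37 were found among the 24421 genes of the deposited table, and all 37 were among the 11380 genes abundant enough to be tested (a deposited CPM, defined below, of at least 1 in at least 3 libraries). The members comprise the Ifit, Oas, Mx, Ifitm and interferon-induced PARP families, cytosolic nucleic acid sensors, the ISG15 conjugation enzymes and smaller groups of restriction factors.

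Poly(A) RNA of 21 libraries was used, in 7 groups of 3. All groups were C57BL/6 macrophages grown from bone marrow in medium conditioned by L929 cells, a fibroblast line that supplies the macrophage growth factor M-CSF, and used on day 7 of differentiation. 1 group was left untreated. The others received IL-4 at 10 ng/ml, IFN-γ at 100 ng/ml, or the 2 cytokines together (called the combination), each for 2 h or 4 h. The labels give no culture time for the untreated cells, so the effect of a cytokine and of the hours in culture cannot be told apart in comparisons with them. With 1 untreated group, the same holds for comparisons of 4 h with 2 h. Nor do they tell if replicates 1 to 3 are different mice or cultures, so the p-values rest on the spread among these samples alone, and that spread may be technical. Values below are CPM (counts of a gene's reads scaled to a common library total) after rescaling between libraries, and are given in the order replicate 1, 2, 3. In comparisons, log2 changes of rescaled CPM + 1 are followed by ± their standard error, each from a limma fit that takes the replicate number as a block, and a gene was called when its p, adjusted by the Benjamini-Hochberg method over all 11380 genes, was under 0.05.

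Type I interferons act through the receptor chains IFNAR1 and IFNAR2 and the kinases JAK1 and TYK2. The signal ends at the interferon-stimulated response element (ISRE) in promoters of antiviral genes. IFN-γ uses another receptor, and its signal ends mainly at the gamma-activated site (GAS). It also induces IRF1, which binds ISRE-like sequences, so that many antiviral genes respond to either kind of interferon. IL-4 signals through STAT6 and drives the alternative activation of macrophages.

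The promoters of the members are shown because the response elements read by these pathways lie there. RefSeq promoter sequences (build GRCm38.p6, from 250 bases before to 50 bases after each listed start) were matched for 28 of the 37 members. These members had 35 windows, and the listed start was the RefSeq gene start in 16 windows. Rtp4, Zbp1, Parp9, Dhx58, Oas2, Mx1, Mx2, Usp18 and Parp14 were not matched. The ISRE was searched as GAAA, any 2 bases and GAAA, and the GAS as TTC, any 3 bases and GAA, each on both strands. The ISRE letters occurred in 12 of the 28 members' promoters (42.9%), against 3.99% of 27025 genes in the RefSeq table. The GAS letters occurred in 8 of 28 (28.6%), against 9.55%. Ifit1, Ifit3, Oas1a, Oas3, Eif2ak2, Ifih1, Ddx58, Isg15, Trim30a, Ifitm3, Bst2 and Rsad2 held the ISRE letters. Oas1a, Eif2ak2, Ifitm3 and Bst2 held both motifs.

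The 200 bases before the listed start are printed 5′ to 3′ on the gene's strand, with ISRE matches in capitals. The first 5 follow a rule: the members with an ISRE match and the highest changes under IFN-γ at 4 h (Isg15, Oas3, Trim30a), and the 2 members with the lowest (Bst2, Trim25). The other 4 (Ifit1, Ifit3, Rsad2, Ifitm1) were chosen after their values were seen. Rsad2, Ifit3 and Ifit1 fell most under IL-4 at 4 h. Ifitm1 was not called under IL-4 alone and was lowered most when IL-4 was added to IFN-γ.
Isg15 (chr4:156200819-156201018, minus strand): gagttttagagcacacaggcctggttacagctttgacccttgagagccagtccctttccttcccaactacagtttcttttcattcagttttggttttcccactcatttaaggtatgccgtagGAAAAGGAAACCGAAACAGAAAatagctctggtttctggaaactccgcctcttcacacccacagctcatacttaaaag
Oas3 (chr5:120777660-120777859, minus strand): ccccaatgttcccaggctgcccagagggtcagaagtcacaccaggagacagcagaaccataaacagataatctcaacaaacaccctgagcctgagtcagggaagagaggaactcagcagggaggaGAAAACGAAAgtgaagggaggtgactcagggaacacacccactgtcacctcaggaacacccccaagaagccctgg
Trim30a (chr7:104465194-104465393, minus strand): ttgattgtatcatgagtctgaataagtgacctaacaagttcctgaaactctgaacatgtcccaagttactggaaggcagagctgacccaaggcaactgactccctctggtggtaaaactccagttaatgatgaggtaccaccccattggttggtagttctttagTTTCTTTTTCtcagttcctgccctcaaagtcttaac
Bst2 (chr8:71537473-71537672, minus strand): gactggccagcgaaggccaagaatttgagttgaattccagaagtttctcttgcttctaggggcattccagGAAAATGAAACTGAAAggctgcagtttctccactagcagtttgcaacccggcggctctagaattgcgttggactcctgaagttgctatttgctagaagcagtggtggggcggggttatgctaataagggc
Trim25 (chr11:88999203-88999402, plus strand): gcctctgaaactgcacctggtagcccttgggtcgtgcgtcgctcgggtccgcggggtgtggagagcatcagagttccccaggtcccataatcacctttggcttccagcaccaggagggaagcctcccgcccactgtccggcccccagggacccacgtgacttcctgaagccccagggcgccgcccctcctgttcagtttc
Ifit1 (chr19:34640689-34640888, plus strand): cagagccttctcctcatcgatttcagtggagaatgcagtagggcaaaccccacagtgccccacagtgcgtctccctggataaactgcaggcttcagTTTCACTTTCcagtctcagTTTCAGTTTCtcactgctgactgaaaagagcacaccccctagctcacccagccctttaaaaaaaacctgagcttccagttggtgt
Ifit3 (chr19:34583329-34583528, plus strand): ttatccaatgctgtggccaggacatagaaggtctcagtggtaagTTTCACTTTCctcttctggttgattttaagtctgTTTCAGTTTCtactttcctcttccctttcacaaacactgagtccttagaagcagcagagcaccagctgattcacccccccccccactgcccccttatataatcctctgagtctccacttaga
Rsad2 (chr12:26456453-26456652, minus strand): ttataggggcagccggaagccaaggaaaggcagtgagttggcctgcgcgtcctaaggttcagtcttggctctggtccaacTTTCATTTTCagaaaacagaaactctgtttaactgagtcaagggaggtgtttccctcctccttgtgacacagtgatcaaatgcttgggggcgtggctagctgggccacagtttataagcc
Ifitm1 (chr7:140967876-140968075, plus strand): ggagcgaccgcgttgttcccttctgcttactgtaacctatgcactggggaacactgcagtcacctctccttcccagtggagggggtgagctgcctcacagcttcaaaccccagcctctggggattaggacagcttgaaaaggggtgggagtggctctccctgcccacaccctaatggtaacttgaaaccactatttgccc
In Isg15, 3 overlapping ISRE matches began 78, 72 and 66 bases before the start. Ifit1 and Ifit3, neighbours on chromosome 19, each carried the same pair of 10-letter matches on the other strand. The matches began 104 and 85 bases before the start in Ifit1, and 156 and 122 bases before it in Ifit3. Rsad2 had 1 match, 120 bases before its start. In Trim25 and Ifitm1 these letters were not found in the 300-base window. The genes themselves lie, in the GENCODE vM21 annotation of GRCm38, at chr19:34550694-34576419 (Ifit2), chr19:34583531-34588731 (Ifit3) and chr19:34640871-34650009 (Ifit1), all on the plus strand, so that the 3 Ifit genes form 1 cluster. Rsad2 lies at chr12:26442746-26456452 (minus strand), beside Cmpk2 at chr12:26469204-26479837 (plus strand). Zbp1 lies at chr2:173206612-173218923 (minus strand), Trim25 at chr11:88999376-89020293 and Ifitm1 at chr7:140967221-140969825 (both plus strand). The Ifitm1 stretch printed above lies inside this gene, after its GENCODE start, so it does not hold the bases before that start. A match describes the sequence only and is no measurement of binding. The change under IFN-γ at 4 h had a median of 1.81 (log2) in the 12 members with ISRE letters and 1.90 in the 16 without. Under IL-4 at 4 h, 7 of the 12 and 9 of the 16 fell, against 23.6% of all genes tested.

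Depth was 28920801 to 80028327 assigned reads per library. 2 untreated libraries stood apart. The precursor of ribosomal RNA (Rn45s) took 43.2% of the reads in untreated replicate 2 and 15.7% in untreated replicate 3, against 0.151% in untreated replicate 1 and at most 3.21% in treated libraries. Such reads lower the CPM of all other genes, and the libraries were rescaled by median ratios. In the CPM as deposited, the median log2 change over all tested genes was 0.39 for IL-4 at 2 h, 0.43 for IL-4 at 4 h, 0.27 for IFN-γ at 2 h and 0.10 for IFN-γ at 4 h. After rescaling it lay between -0.03 and 0 in every comparison, as the method centres this median near 0 by design. The part of Rn45s in the shift was not tested. Macrophage markers fixed for this purpose (9 of 10 in the table) summed to 16700 to 37300 CPM in every library, and erythroid and NK cell markers to at most 0.676 and 0.77 CPM. Of the markers of plasmacytoid dendritic cells, a rich source of type I interferon, Siglech reached 3.82 CPM and Klk1 0.0599 CPM at most. Their sum (88.8 to 188 CPM) was mostly Tcf4 (86.7 to 183 CPM). A few markers of other cells moved with the treatments. The conventional dendritic cell markers summed to 2.19 to 2.28 CPM in untreated cells and 4.01 to 7.76 CPM after 4 h of IFN-γ, the T cell markers (almost all Cd4 and Lck, with Cd3e at most 0.055 CPM) to 5.75 to 27.1 and 12.9 to 33.2 CPM, and the neutrophil markers to 101 to 236 and 110 to 373 CPM. After 4 h of IL-4 the neutrophil markers summed to 64.2 to 204 CPM, with 3 of 7 tested called lower. The plasmacytoid dendritic cell markers summed to 88.8 to 127 CPM there, against 124 to 155 CPM in untreated cells, with 2 of 3 tested called lower. Of the macrophage markers, 5 of 9 were lower and 2 higher, with sums of 17500 to 28300 CPM against 21200 to 37000 CPM. In this comparison (4 h of IL-4 against untreated cells), 23.6% of all genes tested were lower and 23.9% higher. The part of such cells in the results was not tested. In bulk RNA, more cells expressing a gene and more RNA per cell cannot be told apart.

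IFN-γ raised nearly the whole set. At 2 h, 34 of 37 members were higher than in untreated cells, against 20.2% of all genes tested. At 4 h, 36 of 37 were higher, against 32.5%. No member was lower at 4 h, against 30.8%, and the smallest change at 2 h was 0.14 (Bst2). The median log2 change was 1.38 at 2 h and 1.81 at 4 h, with a median over all genes of 0. All 3 IFN-γ libraries lay above all 3 untreated ones in 26 members at 2 h (16.1% of all genes) and in 33 at 4 h (24.2%). Of the 37 members, 33 rose at both times. Oasl1, Isg20 and Bst2 were called at 4 h and not at 2 h, and Trim25 at 2 h and not at 4 h.

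**Figure D1:**
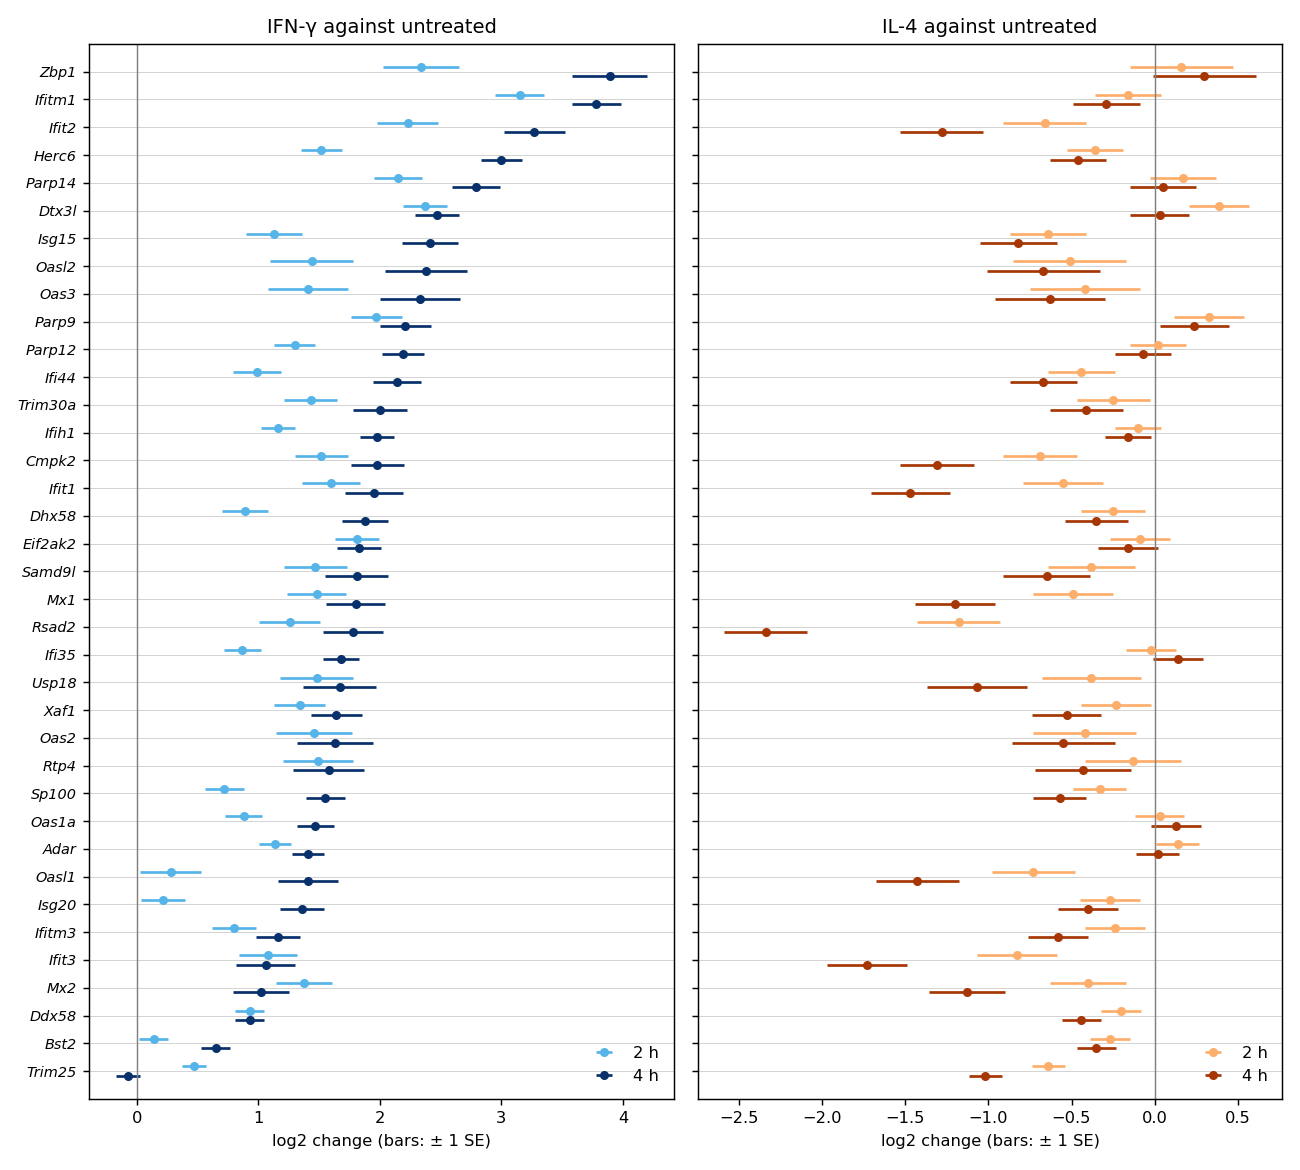
Log2 change of rescaled CPM + 1 against untreated cells for each of the 37 members (points, with bars of 1 standard error, 3 libraries per group), under IFN-γ on the left and IL-4 on the right, at 2 h (light) and 4 h (dark). Members are ordered by the change under IFN-γ at 4 h, from Zbp1 (3.89) to Trim25 (-0.07). Under IL-4 the points of Rsad2, Ifit3, Ifit1 and Oasl1 lie farthest to the left.

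Among the genes that bind RNA or block its translation, 9 of 10 rose at 2 h and 10 of 10 at 4 h. The Ifit proteins capture viral RNA whose cap is missing or incomplete. Ifit1 stood at 81.5, 107 and 42.4 CPM untreated, at 181, 462 and 127 CPM after 2 h of IFN-γ, and at 287, 450 and 170 CPM after 4 h. Each IFN-γ library lay above every untreated one, and replicate 2 was the highest of its group each time. The change was 1.95 ± 0.24 at 4 h (adjusted p = 2.5e-06). Ifit2 went from 199, 268 and 104 CPM to 1760, 2200 and 1290 CPM at 4 h. This was the third highest change of the set, at 3.27 ± 0.25 (adjusted p = 5.2e-09), with a wide gap between the groups. Ifit3 changed less, from 54.2, 80.4 and 29.6 CPM to 91.3, 225 and 58.6 CPM. Its groups overlapped, because IFN-γ replicate 3 lay below untreated replicate 2, yet each pair of the same replicate number rose (1.06 ± 0.24, adjusted p = 0.00088).

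The Oas genes encode synthetases that, on double-stranded RNA, make the messenger that activates RNase L. Oas1a rose from 31.3, 62.6 and 31.3 CPM to 120, 128 and 89.1 CPM at 4 h, and the groups did not overlap (1.47 ± 0.15, adjusted p = 2.6e-07). Oas2 reached 145, 162 and 149 CPM from 27.2, 82.5 and 50.1 CPM. The untreated libraries of Oas2 were widely spread and the IFN-γ libraries close together, for a change of 1.63 ± 0.31 (adjusted p = 2e-04). Oas3 (2.33 ± 0.33) and Oasl2 (2.38 ± 0.34) also rose. Oasl1, an OAS-like protein without synthetase activity, was scarce. It measured 5.02, 15.5 and 4.86 CPM untreated, 8.51, 22.2 and 3.67 CPM at 2 h, and 18.2, 59.7 and 8.41 CPM at 4 h. Its libraries differed more by replicate number than by group at 2 h (0.28 ± 0.25, adjusted p = 0.42), and the rise was called at 4 h (1.41 ± 0.25, adjusted p = 9.8e-05). Eif2ak2 encodes PKR, a kinase that stops translation on binding double-stranded RNA. It rose from 73.5, 130 and 71.9 CPM to 324, 351 and 266 CPM at 2 h and 355, 319 and 278 CPM at 4 h. All treated libraries stood well above the untreated ones, and the level at 4 h was close to that at 2 h. Adar, which edits adenosine in double-stranded RNA, rose by 1.14 ± 0.13 at 2 h and 1.41 ± 0.13 at 4 h.

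All 4 nucleic acid sensors rose at both times. Zbp1, which senses Z-form nucleic acid and can start necroptosis, had the highest change of the set. It went from 23.6, 49.6 and 18.0 CPM to 159, 153 and 123 CPM at 2 h and to 503, 392 and 388 CPM at 4 h. The 3 groups were fully separate. The 4 h change was 3.89 ± 0.31 (adjusted p = 9.3e-09), or 14.8-fold on the scale of CPM + 1. Ifih1 and Ddx58 encode the RNA helicases MDA5 and RIG-I, which detect viral RNA in the cytosol. Ifih1 rose from 62.0, 88.3 and 52.7 CPM to 314, 263 and 221 CPM at 4 h (1.98 ± 0.14, adjusted p = 1.6e-09). Ddx58 rose less, from 85.8, 143 and 81.1 CPM to 181, 246 and 155 CPM (0.93 ± 0.12, adjusted p = 5.9e-06), and its lowest treated library still lay above the highest untreated one. Dhx58, a related helicase that tunes the other 2, went from 47.3, 115 and 49.9 CPM to 235, 329 and 180 CPM. Replicate 2 was high in both of its groups, and the change was 1.88 ± 0.19 (adjusted p = 2.4e-07).

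In the ISG15 and ubiquitin group, 5 of 5 rose at 2 h and 4 of 5 at 4 h. Isg15, a ubiquitin-like protein attached to viral and host proteins, stood at 32.7, 58.7 and 20.6 CPM untreated, 92.8, 97.4 and 48.1 CPM at 2 h, and 209, 241 and 127 CPM at 4 h. Every 4 h library exceeded every untreated and 2 h library (2.41 ± 0.23 against untreated, adjusted p = 1.2e-07). Herc6, the main ligase for Isg15 in the mouse, rose by 3.0 ± 0.17 at 4 h (adjusted p = 1.8e-10). Usp18, which removes Isg15 and also restrains the type I interferon receptor, went from 17.9, 45.2 and 17.2 CPM to 67.7, 114 and 63.9 CPM. Usp18 in untreated replicate 2 was more than that in replicates 1 and 3 together, and the change was 1.67 ± 0.30 (adjusted p = 0.00012). Trim30a rose by 2.00 ± 0.22. Trim25, a ubiquitin ligase that acts on the RIG-I pathway, was the exception. It measured 209, 202 and 202 CPM untreated, 302, 305 and 250 CPM at 2 h, and 203, 232 and 155 CPM at 4 h. The rise at 2 h was 0.47 ± 0.10 (adjusted p = 0.00089). At 4 h the libraries lay on both sides of the untreated level (-0.07 ± 0.10, adjusted p = 0.53), and the fall from 2 h to 4 h was itself called (-0.55 ± 0.10, adjusted p = 0.00025).

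The 3 PARP genes and Dtx3l all rose at both times, with a median log2 change of 2.06 at 2 h and 2.34 at 4 h. Parp12 and Parp14 are mono-ADP-ribosyltransferases, and Parp9 works in a complex with the ubiquitin ligase Dtx3l. Parp14 went from 364, 436 and 296 CPM to 1990, 1340 and 1550 CPM at 2 h and 3110, 2000 and 2510 CPM at 4 h. The groups were far apart (2.79 ± 0.20 at 4 h, adjusted p = 2.3e-09), and replicate 2, the highest untreated library, was the lowest under IFN-γ. Parp9 rose from 89.9, 151 and 86.1 CPM to 584, 402 and 509 CPM at 4 h. Its replicates changed order in the same way (2.21 ± 0.21, adjusted p = 7.7e-08). Dtx3l (2.37 ± 0.18 at 2 h, 2.47 ± 0.18 at 4 h) had nearly its full change by 2 h, and Parp12 (1.30 ± 0.17, then 2.19 ± 0.17) did not. Parp9 and Dtx3l lie on opposite strands of chromosome 16 with starts 681 bases apart and overlapping exons (GENCODE vM21). The strand setting of the counting is not given in the sources used here, so reads of the overlap cannot be assigned to one of them.

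Of the 5 membrane and vesicle restriction factors, 4 rose at 2 h and 5 at 4 h. The Ifitm proteins block virus entry at membranes. Ifitm1 was nearly silent in untreated cells, at 1.55, 0.659 and 2.12 CPM, and reached 23.1, 13.3 and 25.6 CPM at 2 h and 49.2, 19.4 and 32.3 CPM at 4 h. No untreated library came near a treated one (3.78 ± 0.20 at 4 h, adjusted p = 5.3e-11), and it was the only member besides Parp9, Parp14 and Dtx3l whose replicate 2 was lowest in both IFN-γ groups. Ifitm3 was abundant before treatment, at 326, 591 and 401 CPM, and rose to 944, 1030 and 885 CPM (1.16 ± 0.18, adjusted p = 3.5e-05). Mx1 and Mx2 are dynamin-like GTPases. C57BL/6 mice carry a defective Mx1 allele, so its RNA does not stand for a functional protein. Mx1 went from 37.5, 43.3 and 18.8 CPM to 123, 194 and 58.2 CPM. The lowest IFN-γ library lay just above the highest untreated one, and the change was 1.80 ± 0.24 (adjusted p = 6e-06). Mx2 rose by 1.38 ± 0.23 at 2 h and 1.02 ± 0.23 at 4 h. Bst2, or tetherin, which holds budding virions on the cell surface, changed least among the members called at 4 h. It stood at 152, 221 and 129 CPM untreated, 195, 194 and 152 CPM at 2 h, and 237, 321 and 220 CPM at 4 h, so that untreated replicate 2 just exceeded the lowest 4 h library (0.65 ± 0.12, adjusted p = 0.00019).

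The nucleotide enzymes comprise Rsad2 (viperin), which makes a chain-terminating nucleotide, its genomic neighbour Cmpk2, a nucleotide kinase, and Isg20, an RNA exonuclease. Rsad2 rose from 115, 140 and 66.8 CPM to 205, 511 and 144 CPM at 2 h and 324, 642 and 215 CPM at 4 h. Both IFN-γ groups lay above the untreated libraries (1.78 ± 0.25 at 4 h, adjusted p = 9e-06). Cmpk2 rose by 1.98 ± 0.22 and Isg20 by 1.36 ± 0.18 at 4 h. The remaining members, Ifi44 (2.14 ± 0.20), Samd9l (1.81 ± 0.26), Ifi35 (1.68 ± 0.15), Xaf1 (1.64 ± 0.21), Rtp4 (1.58 ± 0.29) and Sp100 (1.55 ± 0.16), all rose at 4 h and were also called at 2 h.

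**Figure D2:**
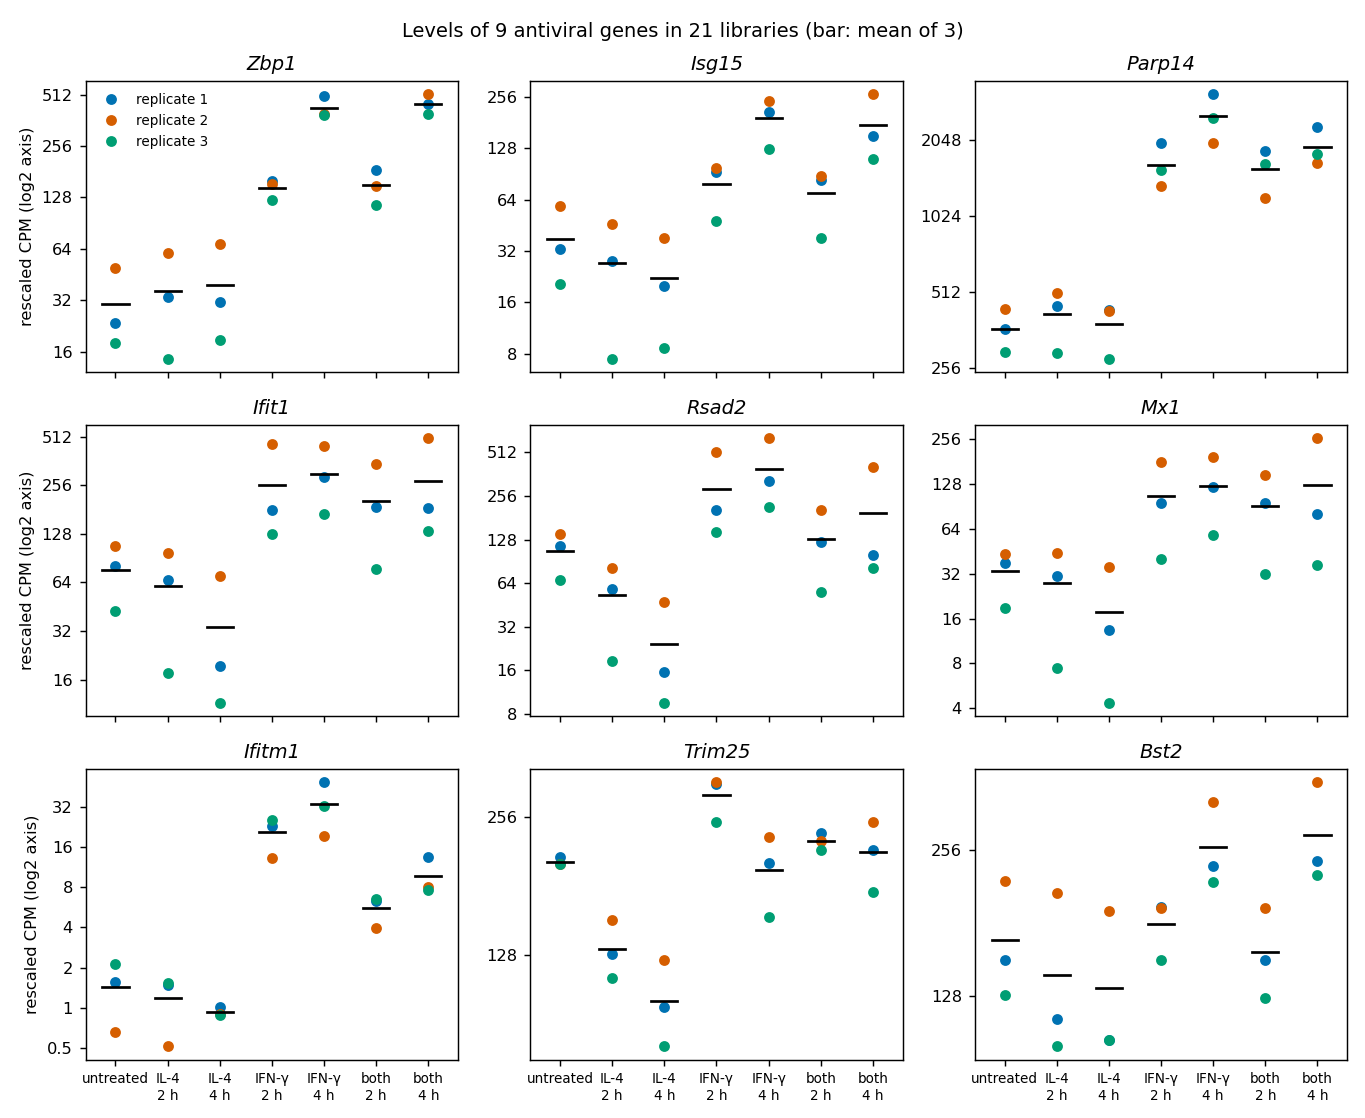
Rescaled CPM (log2 axis) of 9 members in each of the 21 libraries, by group, with points coloured by replicate number and a bar at the mean of 3. Zbp1, Isg15 and Parp14 rise under IFN-γ with or without IL-4, Rsad2 and Ifitm1 are lower in the combination than under IFN-γ, and replicate 2 (orange) lies above replicate 3 (green) for Ifit1, Rsad2 and Mx1 in every group.

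Between 2 h and 4 h of IFN-γ, 19 members rose further, against 23.2% of all genes, and 1 (Trim25) fell, against 22.1%. The median of the difference was 0.52. Zbp1 (1.55 ± 0.31), Herc6 (1.48 ± 0.17), Isg15 (1.28 ± 0.23), Ifi44 (1.15 ± 0.20), Oasl1 (1.14 ± 0.25) and Isg20 (1.13 ± 0.18) rose most. Ifit2, Dhx58, Oasl2, Oas3, Parp12, Sp100, Ifih1, Ifi35, Parp14, Ifitm1, Oas1a, Trim30a and Bst2 were the others called. Eif2ak2 (0.02 ± 0.18), Ddx58 (-0.01 ± 0.12), Ifit3 (-0.02 ± 0.24), Dtx3l (0.09 ± 0.18) and Rtp4 (0.09 ± 0.29) differed between the times by less than 1 standard error. In the combination, 18 members rose from 2 h to 4 h (23.0% of all genes) and 1, Mx2, fell (-0.67 ± 0.23, adjusted p = 0.025, against 23.8%).

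With untreated replicate 1 as the only untreated library, an alternative chosen after seeing the data, 36 members were higher at 4 h (25.8% of all genes). Without the replicate block, 19 members were higher at 2 h (10.8%) and 27 at 4 h (21.3%).

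IL-4 alone lowered part of the set and raised none of it on the rescaled scale. At 4 h, 19 of 37 members were lower than in untreated cells and 0 higher, against 23.6% and 23.9% of all genes tested. The median change was -0.53, with -0.01 over all genes. At 2 h, 5 were lower (11.5%) and 0 higher (14.0%): Rsad2 (-1.18 ± 0.25), Ifit3 (-0.83 ± 0.24), Oasl1 (-0.73 ± 0.25), Cmpk2 (-0.69 ± 0.22) and Trim25 (-0.64 ± 0.10). The count depended on the scale. On the CPM as deposited, 10 members were lower at 4 h (5.07% of all genes) and 7 higher (48.1%), and at 2 h 1 was lower (1.88%) and 6 higher (36.2%). The 10 lower on both scales at 4 h (5.04% of all genes) were Ifit1, Ifit2, Ifit3, Oasl1, Usp18, Trim25, Mx1, Mx2, Rsad2 and Cmpk2. These 10 had log2 changes of at most -1 on the rescaled scale. The other 9, called on the rescaled scale alone, were Isg15 (-0.82), Ifi44 (-0.67), Samd9l (-0.65), Ifitm3 (-0.58), Sp100 (-0.57), Xaf1 (-0.53), Herc6 (-0.46), Ddx58 (-0.44) and Bst2 (-0.35).

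Rsad2 fell most. It went from 115, 140 and 66.8 CPM in untreated cells to 58.5, 81.3 and 18.5 CPM after 2 h of IL-4 and 15.7, 47.7 and 9.57 CPM after 4 h. At 4 h every IL-4 library lay below every untreated one, and the change was -2.34 ± 0.25 (adjusted p = 7.4e-07), 0.198 of the untreated level. Trim25 fell with the least spread, to 129, 153 and 114 CPM at 2 h and 98.9, 125 and 81.1 CPM at 4 h from 209, 202 and 202 CPM. Its untreated libraries were nearly equal and none overlapped with IL-4 at either time (-1.02 ± 0.10 at 4 h, adjusted p = 2.1e-07). Rsad2 and Trim25 were the only members with no overlap at 4 h, against 16.4% of all genes.

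The rest of the lowered members overlapped between groups. Replicates differed in their starting level and also in the size of the fall. In replicates 1, 2 and 3 the log2 change was -2.01, -0.61 and -1.8 for Ifit1 and -2.02, -1.1 and -2.08 for Ifit3. Ifit3 went from 54.2, 80.4 and 29.6 CPM to 12.7, 36.9 and 6.24 CPM at 4 h. IL-4 replicate 2 lay above untreated replicate 3, yet each library was below its own untreated partner (-1.73 ± 0.24, adjusted p = 1.2e-05). Ifit1 fell in the same manner from 81.5, 107 and 42.4 CPM to 19.5, 70.1 and 11.5 CPM (-1.47 ± 0.24, adjusted p = 9.4e-05). Oasl1 dropped to 1.24, 7.46 and 0.571 CPM (-1.43 ± 0.25, adjusted p = 0.00015), a level at which its log2 change on the CPM + 1 scale understates the ratio. Mx1 dropped from 37.5, 43.3 and 18.8 CPM to 13.3, 35.5 and 4.35 CPM. In replicate 2 of Mx1 the fall was small, at -0.28 on the log2 scale against -1.43 in replicate 1 and -1.89 in replicate 3 (-1.20 ± 0.24 over all, adjusted p = 0.00062). Across the 37 members, 28 were lower in 3 of 3 pairs, 2 higher in 3 of 3 and 7 mixed. The same count was not made over all genes, so it does not set the members against other genes.

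Other members were not called under IL-4. None of the 4 PARP and Dtx3l genes was called on the rescaled scale at 4 h. Their changes were 0.24 ± 0.21 for Parp9, 0.05 ± 0.20 for Parp14, 0.03 ± 0.18 for Dtx3l and -0.07 ± 0.17 for Parp12, and Parp9, Parp14 and Dtx3l were called higher on the CPM as deposited, as were Zbp1, Oas1a, Adar and Ifi35. Zbp1 measured 31.3, 67.9 and 18.7 CPM after 4 h of IL-4, close to its 23.6, 49.6 and 18.0 CPM untreated (0.30 ± 0.31, adjusted p = 0.45). Of the sensors, only Ddx58 was called lower on the rescaled scale, and it did not differ as deposited (0.03, adjusted p = 0.89). On the rescaled scale Eif2ak2 (-0.16 ± 0.18), Oas1a (0.13 ± 0.15), Adar (0.02 ± 0.13) and Ifih1 (-0.16 ± 0.14) were not called.

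The difference between 4 h and 2 h of IL-4 uses no untreated library. Here 6 members were lower at 4 h, against 10.7% of all genes: Rsad2 (-1.16 ± 0.25), Ifit1 (-0.92 ± 0.24), Ifit3 (-0.90 ± 0.24), Mx2 (-0.72 ± 0.23), Mx1 (-0.71 ± 0.24) and Trim25 (-0.39 ± 0.10). This count was 2 without IL-4 2 h replicate 1 or without IL-4 4 h replicate 1, 3 without IL-4 2 h replicate 2, 1 without IL-4 4 h replicate 3, and 9 without IL-4 2 h replicate 3. It was 0 without replicate 1 of all groups and 0 without the replicate block. Time under IL-4 and hours in culture cannot be told apart here. The calls against untreated cells also depended on the fit. At 4 h against untreated cells, 9 members were lower with untreated replicate 1 as the only untreated library (16.6% of all genes), these being the 10 above without Usp18, and 2 (Rsad2 and Trim25) were lower without the replicate block (10.1%). Without IL-4 4 h replicate 3, 12 were called. At 2 h the 5 calls became 8 without untreated replicate 2 or IL-4 replicate 2 and 2 without untreated replicate 3 or IL-4 replicate 3.

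Few members were called different when IL-4 was added to IFN-γ. Against untreated cells, the combination raised 31 members at 2 h (22.6% of all genes) and 35 at 4 h (33.4%), with median changes of 1.24 and 1.68. Against IFN-γ alone, 3 members were lower at 2 h (4.50% of all genes), Ifitm1, Rsad2 and Trim25, and 3 at 4 h (18.8%), Ifitm1, Rsad2 and Oasl1. No member was higher at 4 h (13.8% of all genes). Without IFN-γ 4 h replicate 2, 7 members were called at 4 h. Mean levels in the combination at 4 h were 28.8% of the IFN-γ level for Ifitm1 and 49.6% for Rsad2, and between 65.6% (Ifit2) and 114% (Dhx58) for the other members.

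Ifitm1 reached 6.26, 3.95 and 6.57 CPM in the combination at 2 h and 13.4, 8.03 and 7.63 CPM at 4 h, against 23.1, 13.3 and 25.6 CPM and 49.2, 19.4 and 32.3 CPM under IFN-γ alone. The 2 treatments did not overlap at either time. The differences were -1.69 ± 0.20 (adjusted p = 1.2e-05) and -1.64 ± 0.20 (adjusted p = 4.9e-06). Under IL-4 alone Ifitm1 stayed at 1.02, 0.898 and 0.886 CPM at 4 h, near the floor at which a fall could be seen (-0.29 ± 0.20, adjusted p = 0.24). Rsad2 measured 99.3, 404 and 80.9 CPM in the combination at 4 h against 324, 642 and 215 CPM. Replicate 2 of the combination exceeded replicates 1 and 3 of IFN-γ, while every pair was lower (-1.25 ± 0.25, adjusted p = 0.00082). Against untreated cells, Rsad2 in the combination was not called (0.53 ± 0.25, adjusted p = 0.072), with replicate 2 far above the untreated libraries and replicates 1 and 3 among them. Oasl1, at 8.88, 48.9 and 4.55 CPM against 18.2, 59.7 and 8.41 CPM, was at the edge of the threshold (-0.67 ± 0.25, adjusted p = 0.048) and was not called on the CPM as deposited, with TMM factors or by edgeR or DESeq2, nor without any 1 of the 3 IFN-γ libraries or of replicates 1 and 3 of the combination. The call of Trim25 at 2 h (-0.33 ± 0.10, adjusted p = 0.04) was likewise lost on the CPM as deposited, by edgeR and without any 1 of 5 libraries. Ifit2 lay just beyond it (-0.66 ± 0.25, adjusted p = 0.05).

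Most members lowered by IL-4 alone were not called lower when it was added to IFN-γ. Ifit3 measured 68.1, 239 and 55.9 CPM in the combination at 4 h, against 91.3, 225 and 58.6 CPM under IFN-γ, a spread far wider than the difference (-0.13 ± 0.24, adjusted p = 0.71). Mx1 (-0.27 ± 0.24), Usp18 (-0.10 ± 0.30) and Ifit1 (-0.27 ± 0.24) were not called either. Trim25, at 217, 250 and 176 CPM against 203, 232 and 155 CPM, was higher in 3 of 3 pairs without being called (0.13 ± 0.10, adjusted p = 0.36). The uppermost differences were those of Oas2 (0.16 ± 0.31), Dhx58 (0.15 ± 0.19) and Trim25, none of them called. Zbp1 (448, 514 and 393 CPM) and Parp14 (2310, 1660 and 1800 CPM) in the combination overlapped with IFN-γ alone. Of the 19 members lower under IL-4 alone at 4 h, 2 (Rsad2 and Oasl1) were also called lower when IL-4 was added to IFN-γ and 17 were not. These 19 were picked by their fall under IL-4 alone, and such a choice by itself favours a smaller fall in the other comparison. The same share was not computed over all genes, so the count describes the calls only and is no trait of the set.

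**Figure D3:**
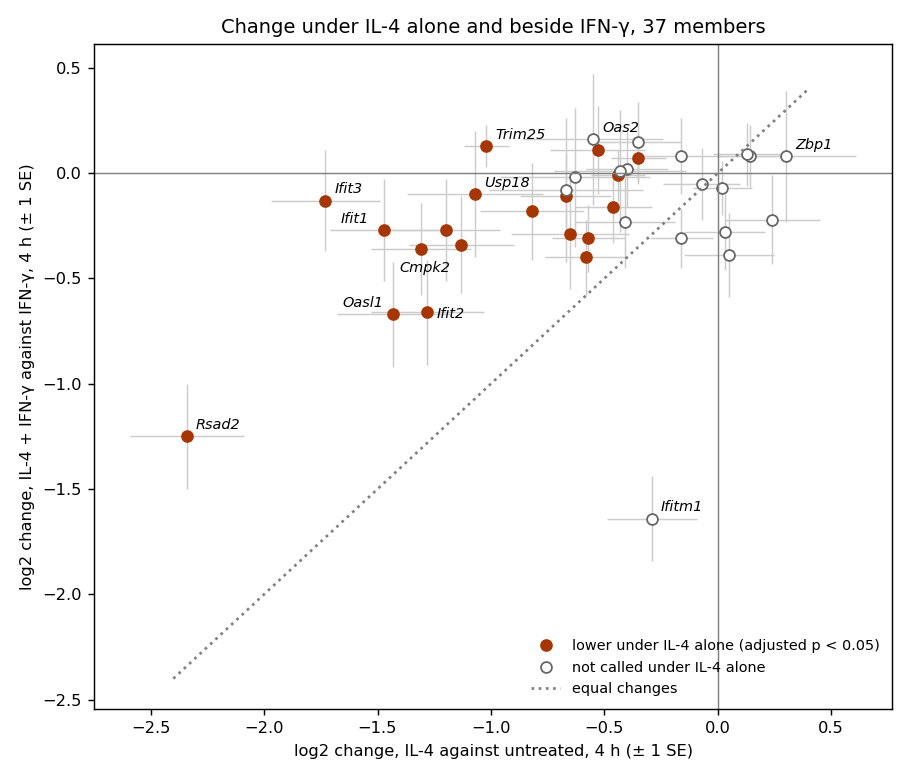
Log2 change with IL-4 at 4 h in cells without IFN-γ (horizontal axis) and in cells with IFN-γ (vertical axis), 1 point per member with bars of 1 standard error. Filled points are the 19 members called lower under IL-4 alone, and the dotted line marks equal changes. Most filled points lie above the line, Ifitm1 lies far below it, and Rsad2 is low on both axes. Filled points were picked by their horizontal value, which by itself favours a place above the line.

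Whether the change with IL-4 itself differed between cells with and without IFN-γ was tested as the interaction. At 4 h, 4 members were higher in the combination than the sum of the separate changes (6.19% of all genes): Ifit3 (1.60 ± 0.33, adjusted p = 0.004), Ifit1 (1.20 ± 0.35, adjusted p = 0.027), Trim25 (1.15 ± 0.14, adjusted p = 4.4e-05) and Rsad2 (1.09 ± 0.35, adjusted p = 0.047). 1 was lower (8.66%), Ifitm1 (-1.35 ± 0.28, adjusted p = 0.0035). At 2 h the interaction was called for Ifitm1 alone (-1.54 ± 0.28, adjusted p = 0.0041, against 1.91% of all genes lower). On the CPM as deposited, 1 member, Ifit3, was higher at 4 h (0.949% of all genes) and 2 lower (8.37%). Ifit1, Trim25 and Rsad2 were thus not called on that scale. Ifit3 was not called without the replicate block or without replicate 3 of all groups, whereas Trim25 was called in both. edgeR on the recovered reads did not call Ifitm1 at either time. The calls of Ifit1 and Rsad2 were lost without any 1 of several libraries, untreated replicates 1 and 3, IL-4 replicates 1 and 3, IFN-γ replicate 2 and combination replicates 2 and 3 among them (3 members called in each case), and without IL-4 4 h replicate 2 the 5 calls became 9. For the other members lowered by IL-4 alone, Mx1 (0.92 ± 0.34, adjusted p = 0.081) and Usp18 (0.97 ± 0.42, adjusted p = 0.14) included, a difference was not shown. The change with IL-4 beside IFN-γ did not differ detectably between 4 h and 2 h: limma called 0 members (7.23% of all genes in either direction), with 1 member at an unadjusted p under 0.05, edgeR called 0 and DESeq2 called 1.

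The replicates differed in the level of these genes before and after treatment, and libraries were therefore compared within a replicate number. Replicate 2 was the highest of its group for 35 of 37 members in untreated cells, 36 and 34 under IL-4 at 2 h and 4 h, 28 and 21 under IFN-γ, and 21 and 27 in the combination. Over all tested genes it was the highest in 35.7% to 39.3%. The median gap of replicate 2 over the mean of the other 2 was 0.77 (log2) in untreated cells, 1.19 and 1.32 under IL-4, 0.38 and 0.25 under IFN-γ and 0.36 and 0.55 in the combination, against -0.04 to 0 for all genes. Untreated replicate 2 was also the library with the most Rn45s reads (43.2%), and in the IL-4 groups Rn45s took at most 0.475%. The part of Rn45s or of any batch in this gap was not tested.

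The gap was not equal across members. Between replicates 2 and 3 under IFN-γ at 4 h it was 2.69 (log2) for Oasl1, 1.92 for Ifit3, 1.72 for Mx1, 1.58 for Rsad2, 1.49 for Cmpk2 and 1.40 for Ifit1. It was 0.01 for Zbp1, 0.04 for Adar and 0.10 for Oasl2. It was below 0 for Ifitm1 (-0.70), Dtx3l (-0.45), Parp9 (-0.34) and Parp14 (-0.33). In untreated cells the same gap was 1.42 for Zbp1 and 1.26 for Oasl2 (under IFN-γ at 2 h, 0.31 and 0.41). In Zbp1 at 4 h replicate 1, at 503 CPM, stood above the other replicates. For Oasl1 (1.49 untreated) and Mx1 (1.16) the gap was there in both states.

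**Figure D4:**
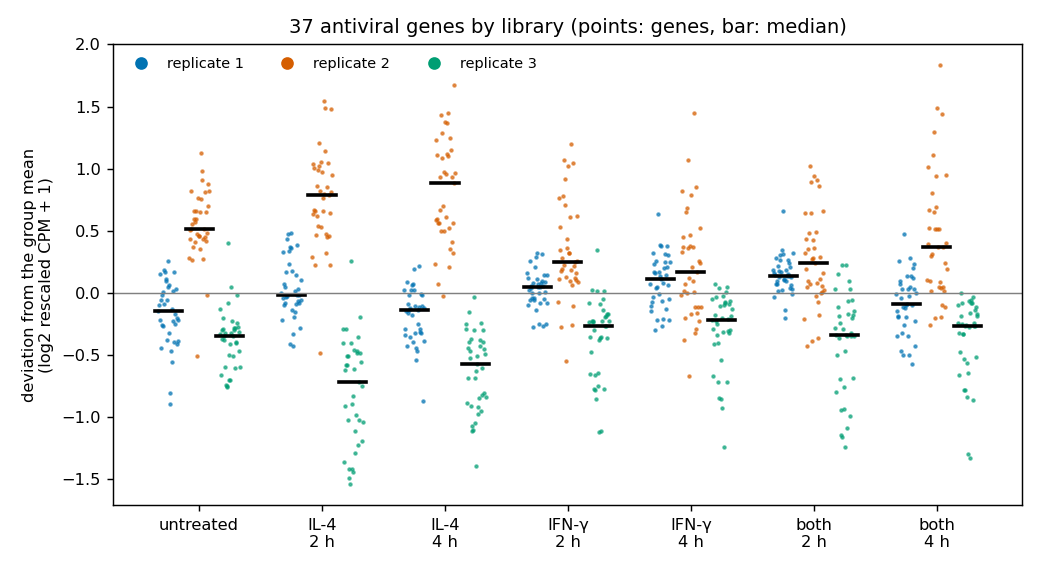
Deviation of each of the 37 members from its group mean (log2 of rescaled CPM + 1) in each of the 21 libraries, coloured by replicate number, with a bar at the library's median. Replicate 2 lies above replicates 1 and 3 in every group by its median, and the median gap over the mean of replicates 1 and 3 is widest under IL-4 at 4 h (1.32) and narrowest under IFN-γ at 4 h (0.25).

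Leaving out replicate 2 from all groups, which leaves 2 libraries per group, brought 15 members below IFN-γ in the combination at 4 h (21.1% of all genes), in place of 3. The changes of single pairs show the same split at 4 h. For Rsad2 the combination lay below IFN-γ by -1.69 and -1.40 in replicates 1 and 3 and by -0.66 in replicate 2, and for Ifit2 by -0.82, -0.78 and -0.37.

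Further genes of the pathway were taken from lists made for this purpose with earlier results of these data known. Of 16 receptors, kinases, STATs, IRFs and inhibitors, 12 rose under IFN-γ at 4 h and 2 fell, against 32.5% and 30.8% of all genes. The 3 with the highest changes were Socs1 (5.94 ± 0.19) and Socs3 (5.06 ± 0.27), feedback inhibitors of JAK signalling, and the transcription factor Irf1 (4.92 ± 0.11). Named after their values were seen, Stat2 rose by 1.70 ± 0.19 and Irf7 by 2.01 ± 0.17, while Irf9, a DNA-binding factor of type I interferon signalling, was called at 2 h (0.28 ± 0.08, adjusted p = 0.014) and not at 4 h (0.03 ± 0.08, adjusted p = 0.73). Under IL-4 at 4 h, 7 of the 16 rose (23.9% of all genes) and 1, Ifngr1, fell (-0.54 ± 0.08, against 23.6%). Socs1 rose by 4.89 ± 0.19 there and Socs3 was not called (-0.63 ± 0.27, adjusted p = 0.067). Of 44 other interferon-stimulated genes, 41 were tested. Under IFN-γ, 39 of them rose at 2 h (20.2% of all genes) and 40 at 4 h (32.5%), with Ifi47 (4.94 ± 0.27), Ifi205 (4.54 ± 0.15) and Mnda (3.38 ± 0.35) highest. Under IL-4 at 4 h, 15 fell (23.6% of all genes) and 3 rose (23.9%), and their median change was -0.18, with -0.53 for the members.

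Of the type I interferon genes, Ifnb1 was detected at a low level under IFN-γ at 4 h. All 17 ligand genes of the list were in the table, none reached the abundance needed for testing, and 8 had no read in any library. Ifnb1, named after its values were seen, had the most reads. It measured 1.27, 0.815 and 1.89 CPM under IFN-γ at 4 h, the last from 70 reads. In the combination at 4 h it measured 0.0566, 0.0337 and 0.0241 CPM, at 2 h of IFN-γ 0.124, 0.0187 and 0.0744 CPM, and in untreated cells 0.0271, 0 and 0 CPM. The IFN-γ libraries at 4 h were all above the libraries of the other groups. No test was made on Ifnb1, and its part in the response of the members was not tested.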

How the data were processed

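RNA-seq of 21 libraries (7 groups of 3) was used, and 24 other libraries of the series were not analysed here. The authors deposited 1 table of CPM per gene, made with TopHat2 2.1.0, HTSeq and edgeR on build mm10, per the submitters' processing notes, from TruSeq poly(A) libraries per the labels' protocols. Counting and strand settings are not given in the sources used here. The CPM steps gave back whole reads for 100% of the values within 0.01 read, with 28920801 to 80028327 reads per library. On these reads edgeR's quasi-likelihood test called 3495 genes higher and 3742 lower under IFN-γ at 4 h.

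The deposited CPM were divided by median-ratio factors (0.577 to 1.21). Genes with at least 1 deposited CPM in at least 3 libraries (11380 of 24421) were fitted with limma 3.58.1 (R 4.3.3, trended empirical Bayes) on log2(rescaled CPM + 1), a scale that understates the change of scarce genes. The fit had 7 group means, the replicate number as a block and 12 residual degrees of freedom. p-values were adjusted by the Benjamini-Hochberg method within each of 14 contrasts and called at 0.05. The fit was tested on simulated data. The pairing comes from the replicate numbers in the labels: deviations from group means correlated at 0.539 to 0.951 in 63 pairs of libraries with the same number and at -0.885 to 0.369 in 147 pairs with different numbers.

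Alternatives were CPM as deposited, TMM factors, a pseudocount of 0.1, no filter, no replicate block, edgeR 4.0.16 and DESeq2 1.42.0 on recovered reads, leaving out each replicate number or library, and, chosen after seeing the data, untreated replicate 1 as the only untreated library. Values per library were to be given for 12 fixed members, for the 3 largest and 3 smallest changes under IFN-γ at 4 h, for the 3 lowest and 3 highest differences between the combination and IFN-γ at 4 h and for the 2 lowest and 2 highest changes under IL-4 at 4 h, and the 3 most changed genes of each further list were to be named. Per-library values of other members were added after their values were seen. The members, lists and markers were chosen with earlier results of these data known. Near-identical family members (Ifit, Oas, Oasl, Ifitm, Mx) may share reads. Oasl1, Dhx58, Ifi35, Usp18, Adar and Eif2ak2 overlap genes on the other strand. Herc6, Parp14, Rtp4 and Sp100 overlap genes on their own strand. The values of all these members carry that uncertainty. 1 gene of the pathway list is not reported here by name.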

Additional observations from a re-analysis of the deposited data

How the results depend on the processing

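Member results (a member in a contrast) kept their direction and side of the threshold in 471 of 518 on the CPM as deposited, 511 with TMM factors, 515 with a pseudocount of 0.1, 500 without a filter, 507 by edgeR, 503 by DESeq2 and 402 without the replicate block. Under IL-4 at 4 h, 3 calls lost their sign on the CPM as deposited: Ddx58 (0.03), Herc6 (0) and Bst2 (0.13). Without the replicate block, fewer members were called: 1 for IL-4 at 2 h, 2 for IL-4 at 4 h, 19 for IFN-γ at 2 h, 27 at 4 h, 16 for the combination at 2 h, 25 at 4 h, 1 for the combination against IFN-γ at each time, 0, 5 and 3 for 4 h against 2 h of IL-4, IFN-γ and the combination, and 0 and 1 for the interaction at 2 h and 4 h. On the CPM as deposited, 3 were called for 4 h against 2 h of IL-4, 2 for the interaction at 2 h and 3 at 4 h. Without a filter, 3 were called for IL-4 at 2 h and 3 for the interaction at 4 h, where more genes were tested. edgeR called 0 for the interaction at 2 h, and DESeq2 called 1 for the IL-4 difference between the times beside IFN-γ. With untreated replicate 1 as the only untreated library, 2 were called for IL-4 at 2 h, 9 at 4 h and 1 for that last difference. The share of all genes called also moved with the setting. Under IL-4 at 4 h, 23.6% of all genes were lower in the main fit and 10.1% without the block. Counts given here and above without such a share describe the calls only, and not the members against other genes. The cause of these changes was not tested, beyond what fewer samples bring.

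Leaving out a replicate number or a library gave 1 to 20 members called for IL-4 at 2 h, 10 to 27 at 4 h, 30 to 35 for IFN-γ at 2 h, 36 to 37 at 4 h, 25 to 31 for the combination at 2 h and 33 to 36 at 4 h. The combination against IFN-γ gave 1 to 5 at 2 h and 2 to 15 at 4 h. The contrasts of 4 h against 2 h gave 0 to 9 for IL-4, 14 to 25 for IFN-γ and 14 to 20 for the combination, and the interaction 0 to 4 at 2 h and 2 to 15 at 4 h. The IL-4 difference between the times beside IFN-γ gave 0 to 2. Most of the highest counts came without replicate 2. The share of all genes moved as well: for the combination below IFN-γ at 4 h it was 18.8% in the main fit and 21.1% without replicate 2. These ranges too describe the calls only. Depth was no limit for most members, but Ifitm1 in cells without IFN-γ and Oasl1 under IL-4 lay near 1 CPM, where the pseudocount shrinks a fall.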

Other observations

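Across the 37 members, the gap between replicates 2 and 3 under IFN-γ and the change under IL-4 were set side by side. The log2 change under IL-4 at 4 h correlated with the gap (log2 of replicate 2 minus replicate 3) under IFN-γ at 2 h at Pearson's r = -0.746 and Spearman's rho = -0.686, and with the gap under IFN-γ at 4 h at r = -0.722 and rho = -0.659. The IFN-γ libraries do not enter the IL-4 change, but the replicate difference ran through the libraries that do. Replicate 2 was the highest of its group for 35 of 37 members in untreated cells and for 34 under IL-4 at 4 h. The part of this shared difference in the correlation was not tested. The comparison was not among those planned, and no value over all genes was computed. The values describe 37 genes measured in the same libraries, which are not independent replicates. Rsad2, Ifit3, Ifit1, Oasl1 and Mx1 combined a fall under IL-4 at 4 h with a gap above 1.3 under IFN-γ at 4 h, whereas Parp9, Parp14 and Dtx3l combined no call under IL-4 with a gap below 0. Other members did not follow this. Mx2 (-1.13), Trim25 (-1.02) and Ifit2 (-1.28) fell with gaps of 0.02, 0.58 and 0.77, and Isg20 had a gap of 1.32 without a call under IL-4 (-0.40).

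Irf7, a transcription factor that amplifies the type I interferon response and belongs to the pathway list, differed from most members. It was higher in the combination than under IFN-γ alone at 4 h (0.83 ± 0.17, limma adjusted p = 0.00093), and it was named after its values were seen. Irf7 also rose under IL-4 alone at 4 h (0.62 ± 0.17, limma adjusted p = 0.0055). Its interaction at 4 h was not called (0.20 ± 0.24, limma adjusted p = 0.61). Of the 16 genes of that list, 4 were higher in the combination (13.8% of all genes), Socs1 (1.16 ± 0.19) among them, and 4 lower (18.8%).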
